A study of Homo sapiens with 6 samples.

Results

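The HOX genes code for homeodomain transcription factors and stand in 4 clusters on separate chromosomes. They were taken from the deposited table as the protein-coding genes whose symbol is HOX, a cluster letter from A to D and a number, with symbols from GENCODE 29. All 39 such genes of that annotation were listed, among 33890 genes in all: 11 in HOXA, 10 in HOXB, 9 in HOXC and 9 in HOXD. Along a cluster, genes are numbered by paralog group, from group 1 at the 3′ end to group 13 at the 5′ end, and genes of the same number in different clusters are the closest relatives. On build GRCh38 HOXA lies on chromosome 7, and the span between the outermost genes of HOXB is chr17:48528526-48729178, that of HOXC chr12:53938765-54056030 and that of HOXD chr2:176092891-176190907.

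In the embryo, HOX genes are switched on in the order in which they lie along the cluster, those at the 3′ end earlier and nearer the head and those at the 5′ end later and nearer the tail. Polycomb complexes keep unused parts of a cluster silent through histone H3 lysine 27 methylation, Trithorax-type complexes maintain active parts, and retinoic acid, CTCF and cohesin act on where the active part begins and ends. The adult forebrain has little HOX expression, whereas glioblastoma cells and lines often express HOX genes.

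RNA came from LN229, an established human line from a glioblastoma (grade IV glioma), in 2 groups of 3 libraries. The UDCA group had been kept in 800 µM ursodeoxycholic acid, a hydrophilic bile acid given as medicine for cholestasis, for 48 h, and the control group had not been treated. The labels name no vehicle, and both groups were grown in the same serum-containing medium. A single line was used. The labels do not state whether the 3 libraries of each group go back to separate dishes, so p-values here reflect only how far these libraries differ among themselves, which may be technical.

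Values are FPKM, reads scaled by merged exon length and by the library's total, as deposited, and group values are means ± SD over 3 libraries. Reads recovered from these values came to between 15988951 and 17045218 in the UDCA libraries and to between 16639832 and 17743022 in the control libraries, of which 4203 to 4651 (UDCA) and 5850 to 6155 (control) lay in HOX genes. Of 14380 genes tested with limma on log2(FPKM + 1), 45.1% were called higher and 35.7% lower in UDCA cells at an adjusted p under 0.05, together 80.8%, so most genes differed. Mitochondrial genes took 0.0263% to 0.0271% of the reads in the UDCA libraries, against 3.13% to 3.16% in the control libraries. The labelled cell type was checked on 8 astroglial and neural progenitor genes, which summed to between 111 and 114 FPKM in UDCA libraries and between 678 and 693 FPKM in control libraries. Of these, VIM, NES, S100B and SOX2 were called lower, OLIG2 was not called, GFAP averaged 0.505 and 0.612 FPKM in UDCA and control cells, and AQP4 and ALDH1L1 were at or near 0. The 4 leukocyte and endothelial markers were not tested and summed to under 1 FPKM in every library. The 4 epithelial markers, of which KRT8 was called higher and EPCAM and CDH1 were near 0, summed to between 19.7 and 21.6 FPKM in UDCA and between 19.0 and 20.1 FPKM in control libraries. The 3 neuronal ones, SNAP25 and TUBB3 being called lower (TUBB3 passed the filter through control libraries only), summed to between 4.13 and 5.12 FPKM in UDCA and between 7.05 and 7.72 FPKM in control libraries. Whether the mitochondrial share or these marker levels had a part in any HOX value was not tested, and in bulk RNA fewer cells of a type and less RNA per cell cannot be told apart.

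All 4 clusters were active in LN229 cells, with little RNA from the 3′-most genes of HOXB and HOXD. With UDCA, HOXB9 rose 7.06-fold to become the highest HOX gene, HOXB7 of the same cluster fell 3.22-fold, and 19 further tested HOX genes were lower. In UDCA cells 18 of the 39 genes averaged at least 1 FPKM (3 in HOXA, 4 in HOXB, 7 in HOXC and 4 in HOXD), against 26 in control cells (6, 7, 8 and 5). At 10 FPKM or more stood 1 gene in UDCA cells (HOXB9) and 2 in control cells (HOXB7 and HOXC10). A further 4 genes in UDCA cells and 10 in control cells lay between 5 and 10 FPKM.

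HOXB9 stood first in the order of levels in UDCA cells at 34.8 ± 1.33 FPKM. Below it came HOXD8, HOXB7 and HOXC10 at 8.44 ± 1.22, 8.42 ± 0.206 and 8.14 ± 0.455 FPKM, whose libraries overlapped. The highest gene in control cells was HOXB7 at 27.1 ± 1.02 FPKM. It was followed by HOXC10 at 10.6 ± 0.78, HOXC9 at 9.32 ± 0.542, HOXC4 at 7.85 ± 0.28 and HOXD9 at 7.37 ± 0.538 FPKM. The library values of HOXC4, HOXD9 and HOXB6 overlapped there. The genes named here at the head of the order thus belonged to HOXB, HOXC and HOXD in both groups. No HOXA gene was above 5 FPKM in UDCA cells, where HOXA10 led its cluster. In control cells HOXA5 averaged 6.63 FPKM, with library values that overlapped those of HOXD9 and HOXB6, and HOXA3 averaged 5.15 FPKM.

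**Figure D1:**
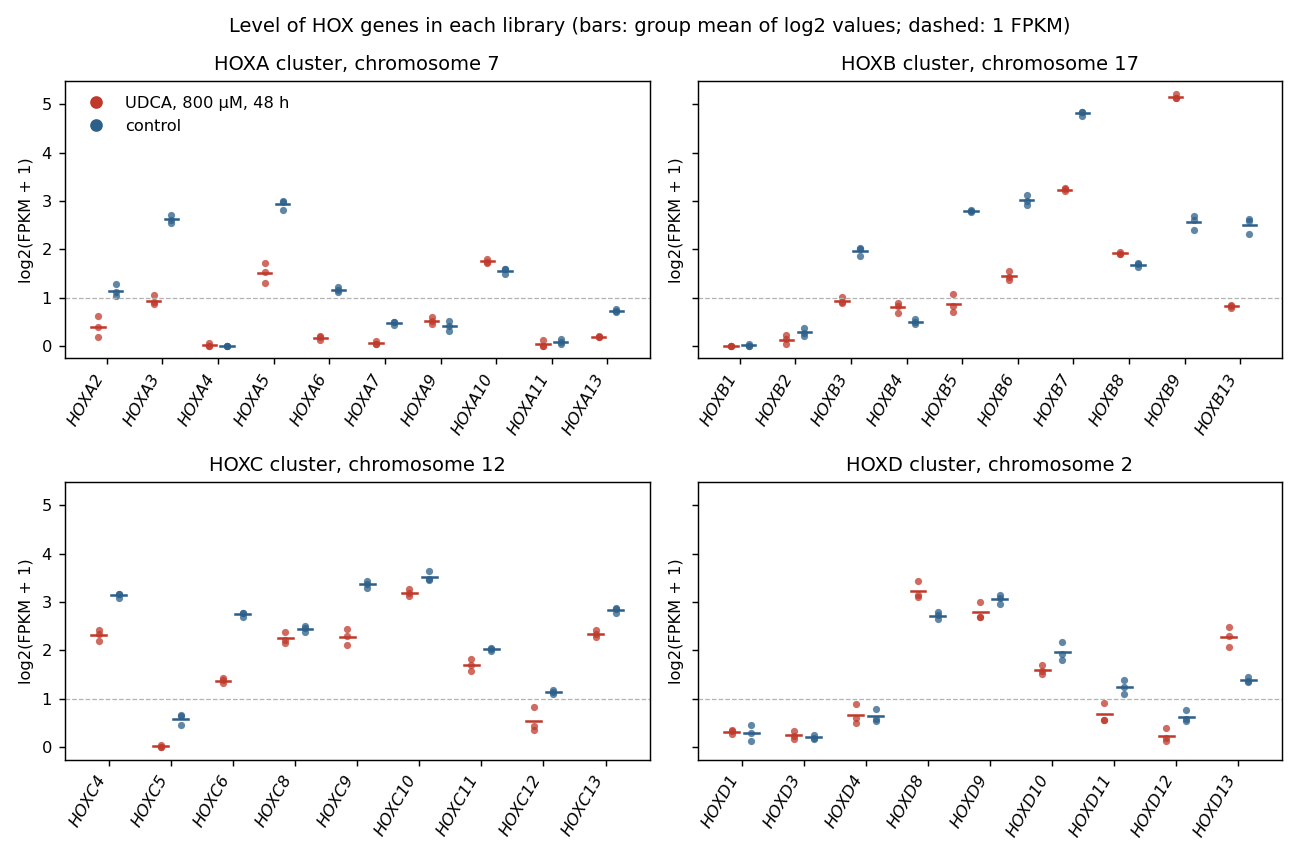
Level of HOX genes in each library (those called or not tested), as log2(FPKM + 1), with a panel per cluster and genes in order from the 3′ end; points are libraries (UDCA red and left, control blue and right), short bars are means of the log2 values over 3 libraries, and the dashed line is 1 FPKM. HOXB9 stands at 34.8 FPKM in UDCA cells against 4.92 FPKM in control cells, while HOXB7 stands at 8.42 FPKM against 27.1 FPKM.

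Of the 39 genes, 26 had at least 1 FPKM in 3 or more libraries and were tested. Among these, 5 were called higher in UDCA cells (HOXA10, HOXB8, HOXB9, HOXD8 and HOXD13), 20 lower, and 1 was not called. Read against the background, 5 of 26 stands beside 45.1% of all genes called higher, and 20 of 26 beside 35.7% called lower. The median log2 change of the 26 was -0.58, against 0.10 over all genes tested. For 8 of the 26, all 3 control libraries but not all 3 UDCA libraries reached 1 FPKM, here called passing through control libraries only. This favours lower values with UDCA, so these counts describe the tested genes only. Among the 18 that passed in both groups, 5 were called higher, 12 lower and 1 was not called. All 3 UDCA libraries lay above all 3 control libraries for 5 of the tested HOX genes and below them for 19, beside 46.1% and 36.7% of all genes tested. HOXC8 and HOXD9 were called lower with overlapping groups.

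**Figure D2:**
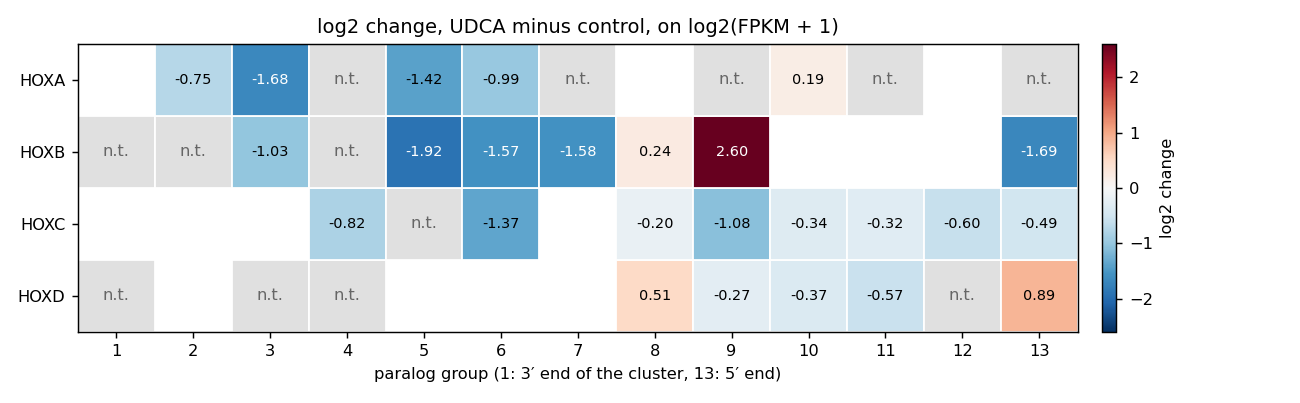
Log2 change of the called HOX genes (UDCA minus control, from log2(FPKM + 1) values), with clusters in rows and paralog groups 1 to 13 in columns; n.t. marks genes not tested, and blank cells have no gene or one not shown. The 10 tested genes of groups 2 to 7 all carry negative changes, the untested HOXB4 averages 0.737 FPKM in UDCA and 0.413 FPKM in control cells, and the 5 positive changes lie in groups 8, 9, 10 and 13.

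By position, all 10 tested genes of paralog groups 2 to 7 were called lower, beside 35.7% of all genes tested. Their falls were 1.96-fold to 9.89-fold in FPKM, and 5 of them passed the filter through control libraries only. These groups hold 17 genes, and of the 7 that were not tested 4 had a higher mean in UDCA cells (HOXA4, HOXB4, HOXD3 and HOXD4). HOXB4 had all its UDCA libraries above its control libraries and goes against the direction of the tested genes. The 15 tested genes of groups 8 to 13 comprised the 5 called higher and 10 called lower, beside 45.1% and 35.7% of all genes. The 10 were lower by 1.18-fold to 6.17-fold, 3 of them through control libraries only. This division was drawn after the values were seen, and the difference between both sets of positions was not tested. By cluster, HOXC moved in 1 direction, with 8 of 8 tested genes called lower, beside 35.7% of all genes. In HOXB 2 of 7 tested genes were called higher and 5 lower. In HOXA 1 of 6 was higher and 4 lower, both beside 45.1% and 35.7% of all genes. In HOXD 2 of 5 were higher, near the 45.1% of all genes, and 3 lower. Of the genes called lower, HOXA2, HOXA3, HOXA6, HOXB3, HOXB5, HOXB13, HOXC12 and HOXD11 passed through control libraries only, which favours lower values. In HOXA and HOXB, the genes called lower that passed in both groups were HOXA5, HOXB6 and HOXB7. Differences between clusters were not tested.

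In the HOXB cluster the opposite calls lay next to each other. HOXB9 (chr17:48621159-48626356, minus strand), a posterior gene that patterns the thoracic skeleton in mice, had 33.9, 34.1 and 36.3 FPKM in the UDCA libraries, against 5.45, 4.26 and 5.07 FPKM in the control libraries. Each UDCA library was far above each control library. The rise was 2.60 ± 0.076 (SE) on the log2 scale, with an adjusted p of 1.25e-07, and rested on 4489 reads in UDCA and 655 in control cells. HOXB7 (chr17:48607227-48633572, minus strand), studied as a growth-promoting gene in several tumour types, had 8.19, 8.56 and 8.52 FPKM in the UDCA libraries, against 27.7, 27.7 and 25.9 FPKM in the control libraries. Its fall of 1.58 on the log2 scale (SE 0.0364, adjusted p = 4.13e-08) was as free of overlap as the rise of HOXB9. The annotated body of HOXB7 covers HOXB8 and HOXB9, but neither HOXB7 nor HOXB9 has an exon base in common with another annotated gene. Within a library the ratio of HOXB9 to HOXB7 was 4.14, 3.99 and 4.26 with UDCA, against 0.197, 0.154 and 0.195 in control cells. This ratio was chosen after the values were seen. HOXB8, between them in paralog number, had 2.87, 2.72 and 2.76 FPKM in UDCA cells and 2.29, 2.10 and 2.25 FPKM in control cells. Its libraries did not overlap and it was called higher, but by only 1.26-fold (adjusted p = 0.00538).

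The other tested HOXB genes were all lower with UDCA. HOXB5 had 1.10, 0.632 and 0.779 FPKM in the UDCA libraries, against 5.83, 6.01 and 5.91 FPKM in the control libraries, and fell 7.06-fold (log2 change -1.92, adjusted p = 1.79e-06). HOXB13, the 5′-most gene of the cluster and a lineage factor of the prostate and hindgut, had 0.776, 0.711 and 0.799 FPKM with UDCA, against 5.01, 3.94 and 5.15 FPKM in control cells. It fell 6.17-fold (log2 change -1.69, adjusted p = 3.16e-06), and all UDCA libraries were below 1 FPKM. HOXB6 averaged 1.72 ± 0.181 FPKM in UDCA cells and 7.07 ± 0.627 FPKM in control cells, and HOXB3, a hindbrain gene, averaged 0.914 ± 0.0884 and 2.90 ± 0.228 FPKM in UDCA and control cells. Both fell without overlap (adjusted p = 1.65e-06 and 1.12e-05). HOXB3, HOXB5 and HOXB13 passed the filter through the control group only. HOXB6 shares 32.9% of its exon bases with HOXB3 or the antisense gene HOXB-AS3, and HOXB3 13.2% of its own with other genes, and since the strand setting of the counting is not given in the sources used here, reads there cannot be assigned with certainty.

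Of the HOXB genes that were not tested, HOXB4, a regulator of blood stem cell growth, stood apart: it averaged 0.737 ± 0.125 FPKM in UDCA cells and 0.413 ± 0.0609 FPKM in control cells, from 139 and 80 reads. Its UDCA libraries were all above its control libraries. HOXB2 had 11 reads in UDCA and 26 in control cells, and HOXB1 had 0 and 1, so both were near 0. Of 6 neighbouring pairs of tested genes in HOXB, 2 changed in opposite directions: HOXB7 with HOXB8, and HOXB9 with HOXB13.

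**Figure D3:**
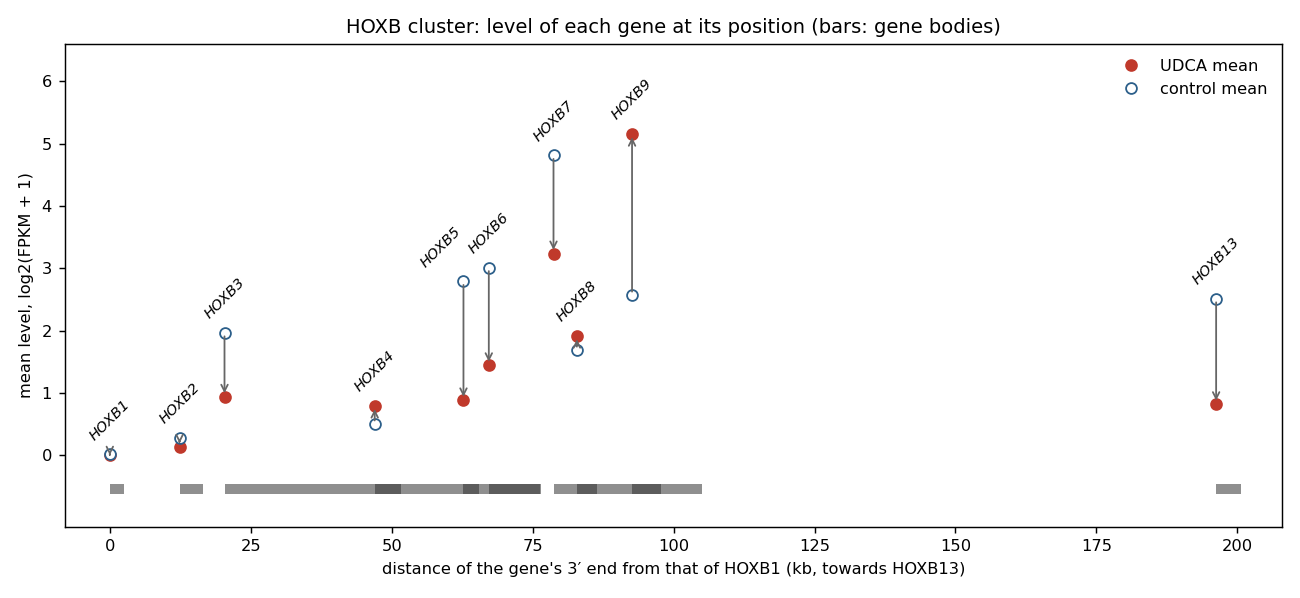
Mean level of each HOXB gene, as log2(FPKM + 1), against the distance of its 3′ end from that of HOXB1 in kb; filled red points are UDCA means, open blue points control means, arrows run to the UDCA mean, and grey bars are gene bodies (darker where they overlap). HOXB8, with 2.78 FPKM in UDCA and 2.21 FPKM in control cells, has its 3′ end between those of HOXB7, which fell, and HOXB9, which rose.

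In the HOXC cluster every tested gene was lower in UDCA cells, and the size of the fall differed by gene. HOXC6 had 1.68, 1.49 and 1.61 FPKM in the UDCA libraries, against 5.48, 5.83 and 5.86 FPKM in the control libraries, a fall of 3.59-fold (log2 change -1.37, adjusted p = 5.12e-07). HOXC9, which sets thoracic motor neuron identity in mice, had 3.95, 3.32 and 4.42 FPKM with UDCA, against 9.84, 9.35 and 8.76 FPKM in control cells, and fell 2.39-fold (adjusted p = 2.34e-05). HOXC4 had 4.06, 3.60 and 4.39 FPKM with UDCA, against 8.03, 8.0 and 7.53 FPKM in control cells (1.96-fold lower, adjusted p = 2.11e-05). The libraries of these 3 genes did not overlap. HOXC4 shares 17.8% of its exon bases and HOXC6 15.7% with neighbouring genes of the cluster, which have exons in common, so part of their reads could belong to either.

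Among the remaining HOXC genes the falls were of differing size, with no steady order along the cluster. HOXC10, active in the lumbar spinal cord and hindlimb of mice, averaged 8.14 ± 0.455 FPKM in UDCA cells and 10.6 ± 0.78 FPKM in control cells (1.30-fold lower, adjusted p = 0.00166). HOXC11 averaged 2.25 ± 0.276 and 3.06 ± 0.0986 FPKM in UDCA and control cells (adjusted p = 0.00558), and HOXC13, which drives hair keratin genes, averaged 4.08 ± 0.262 and 6.15 ± 0.271 FPKM (1.51-fold lower, adjusted p = 0.000126). These 3 genes had no overlap between groups. HOXC12 had 0.769, 0.352 and 0.283 FPKM in the UDCA libraries, against 1.14, 1.20 and 1.25 FPKM in the control libraries (2.56-fold lower, adjusted p = 0.00464), and passed the filter through the control group only. HOXC8 had 3.48, 4.19 and 3.62 FPKM with UDCA, against 4.17, 4.49 and 4.68 FPKM in control cells. Its groups overlapped, the difference was 1.18-fold and the call (adjusted p = 0.0381) was lost on leaving out replicate 1 or 3 of UDCA or 2 or 3 of control, with adjusted p between 0.0919 and 0.114. HOXC5, which was not tested, had 1 read in UDCA and 47 in control cells, and shares 59.9% of its exon bases.

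The HOXA cluster had the lowest summed level in UDCA cells, and its called falls lay in groups 2 to 6. HOXA5, a gene of lung development, had 1.87, 2.30 and 1.45 FPKM in the UDCA libraries, against 6.02, 7.01 and 6.87 FPKM in the control libraries. HOXA3, needed for thymus and parathyroid formation, had 0.813, 1.08 and 0.862 FPKM with UDCA, against 4.80, 5.55 and 5.09 FPKM in control cells. Both were lower in every UDCA library, by 3.54-fold (log2 change -1.42, adjusted p = 2.28e-05) and 5.61-fold (-1.68, adjusted p = 1.19e-06). HOXA2, the selector gene of the second branchial arch, had 0.127, 0.525 and 0.312 FPKM with UDCA, against 1.42, 1.04 and 1.17 FPKM in control cells (3.76-fold lower, adjusted p = 0.00151). HOXA6 had 0.146, 0.0913 and 0.138 FPKM with UDCA, against 1.22, 1.18 and 1.32 FPKM in control cells. The fall of HOXA6 was 9.89-fold (adjusted p = 1.96e-05) but rested on 8 reads in UDCA and 82 in control cells, and 40.1% of its exon bases overlap other genes, among them HOXA-AS3 on the opposite strand. HOXA2, HOXA3 and HOXA6 passed the filter through the control group only.

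Elsewhere in HOXA the levels were low or the change small. HOXA10, a gene of the uterus and of haematopoiesis, had 2.28, 2.34 and 2.46 FPKM in UDCA cells, against 1.99, 2.01 and 1.81 FPKM in control cells. Its rise was 1.22-fold (adjusted p = 0.0189) without overlap, and the call was lost under median ratio scaling between libraries (adjusted p = 0.0757) and on leaving out replicate 3 of UDCA (0.0597) or of control (0.0573). HOXA10 shares 26.3% of its exon bases with other genes. Among untested members, HOXA13, the distal limb and urogenital gene, had 34 reads in UDCA and 170 in control cells (0.134 ± 0.0118 and 0.648 ± 0.0337 FPKM). HOXA7 had 5 and 48 reads, HOXA9 66 and 52, HOXA11 3 and 7, and HOXA4 1 and 0 in UDCA and control cells. UDCA libraries were all below control libraries for HOXA13 and HOXA7, and the groups overlapped for HOXA4, HOXA9 and HOXA11.

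In the HOXD cluster the gene nearest the 5′ end and the tested gene nearest the 3′ end rose, and those between them were lower. HOXD13, the digit gene of the limb, had 3.88, 4.56 and 3.21 FPKM in the UDCA libraries, against 1.74, 1.53 and 1.59 FPKM in the control libraries. It rose 2.40-fold (log2 change 0.89, SE 0.105, adjusted p = 0.000177), from 435 reads in UDCA and 187 in control cells. HOXD8 had 7.87, 9.84 and 7.60 FPKM with UDCA, against 5.92, 5.24 and 5.60 FPKM in control cells, a rise of 1.51-fold (adjusted p = 0.00176). For both genes all UDCA libraries were above all control libraries, and neither shares exon bases with another gene.

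Between them, HOXD11 had 0.474, 0.890 and 0.475 FPKM in UDCA cells, against 1.62, 1.38 and 1.15 FPKM in control cells, and fell 2.26-fold (adjusted p = 0.00546), having passed the filter through control cells only. HOXD10, a gene of lumbar motor neurons in mice, averaged 2.03 ± 0.206 FPKM with UDCA and 2.92 ± 0.522 FPKM in control cells (1.44-fold lower, adjusted p = 0.0158). Both were free of overlap between groups, though they share exon bases with each other (21.4% of HOXD11 and 16.8% of HOXD10), and the HOXD10 call was lost without replicate 2 of UDCA (adjusted p = 0.0517). HOXD9 had 5.42, 5.49 and 7.03 FPKM with UDCA, against 6.78, 7.83 and 7.50 FPKM in control cells, so replicate 3 of UDCA lay within the control range. Its call as lower (adjusted p = 0.0371) was lost on leaving out replicate 1 or 2 of UDCA or 2 or 3 of control, with adjusted p between 0.0930 and 0.112. The untested HOXD12 had 12 reads in UDCA and 38 in control cells. HOXD1 had 24 and 23, HOXD3 32 and 27, and HOXD4 43 and 42 reads in UDCA and control cells, all with overlapping groups and with 58.1% to 80.5% of their exon bases shared.

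Without the filter on low values all 39 genes were tested, and 6 were called higher and 22 lower, beside 22.8% and 19.8% of all 33890 genes. Of these 33890, 19510 had failed the filter, against 13 of the 39 HOX genes, so this background is unlike that of the filtered settings. HOXB4 (log2 change 0.30, adjusted p = 0.0406) was then called higher. HOXA7 (-0.41, adjusted p = 0.000554), HOXA13 (-0.54, 0.000429), HOXC5 (-0.57, 0.000938) and HOXD12 (-0.40, 0.0213) were called lower, and HOXC8 and HOXD9 were no longer called. Scaling by the median ratio of genes gave 4 higher and 21 lower of 26, beside 41.1% and 39.6% of all genes. The voom method on the recovered whole reads gave 4 and 19, beside 45.8% and 36.4%, with HOXB8 (adjusted p = 0.0507) and HOXC8 (0.0820) not called. Changes on the log2(FPKM + 1) scale understate those of genes with low values.

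Summed over its genes, each cluster kept or lost a different part of its level, given as a description. HOXA summed to 7.87 ± 0.577 FPKM in UDCA cells and 19.5 ± 0.777 FPKM in control cells, a ratio of 0.404. HOXC summed to 28.2 ± 0.344 FPKM with UDCA and 48.8 ± 0.977 FPKM in control cells, a ratio of 0.578. HOXB summed to 51.0 ± 1.34 and 55.5 ± 0.966 FPKM in UDCA and control cells, a ratio of 0.920, and to 16.3 ± 0.148 and 50.5 ± 0.891 FPKM without HOXB9, a ratio of 0.322. The near-equal HOXB sums thus joined a large rise of HOXB9 with falls elsewhere in the cluster. HOXD summed to 22.1 ± 1.5 FPKM in UDCA cells and 20.4 ± 0.524 FPKM in control cells, a ratio of 1.09. The HOXD sums of both groups overlapped, with 20.7 FPKM in replicate 1 of UDCA and 20.8 FPKM in replicate 3 of control. Over the 4 clusters the sum was 109 ± 2.39 FPKM with UDCA and 144 ± 1.18 FPKM in control cells. HOXB9 made up 31.8% ± 0.979 of it in UDCA cells and 3.42% ± 0.43 in control cells, and HOXB7 7.71% ± 0.0257 and 18.8% ± 0.557.

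**Figure D4:**
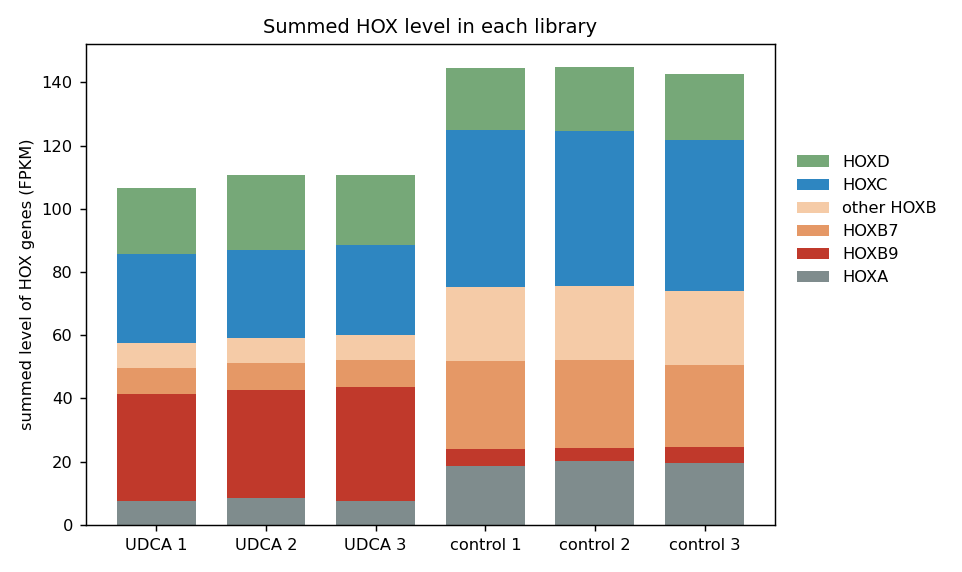
Summed FPKM of the HOX genes in each library, stacked by cluster, with HOXB9 and HOXB7 drawn apart from the other HOXB genes; the 3 UDCA libraries are on the left and the 3 control libraries on the right. The total averages 109 FPKM with UDCA and 144 FPKM in control cells, and the HOXB9 segment takes 31.8% of it with UDCA against 3.42% in control cells.

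Promoter sequences are shown for 4 genes, since genes of the same cluster changed in opposite ways. RefSeq windows (GRCh38.p14), of which the 250 bases before each start were read, held 27 entries for 20 of the 39 HOX genes. Of the called genes, only 2 higher and 2 lower had a single window with at most 30 bases in annotated exons, and these are shown. That rule left out HOXA3 and HOXA10, with several windows, and HOXA2, HOXC4 and HOXD10, with more exon bases. HOXB9 and HOXB7 had no window, so their opposite changes are not covered. In each sequence capitals mark matches, on either strand, to any of 7 motifs, which may overlap: the CCAAT box, the TATA box with the letters TATAAA, the GC box with GGGCGG, the E-box with CACGTG, the cAMP response element with TGACGTCA, the C/EBP-ATF element with TGATGNAA and the HOX-PBX site with TGATNNAT. HOXD13 and HOXD8 were higher and HOXA6 and HOXD11 lower with UDCA.
HOXD13, chr2:176092471-176092720, plus strand: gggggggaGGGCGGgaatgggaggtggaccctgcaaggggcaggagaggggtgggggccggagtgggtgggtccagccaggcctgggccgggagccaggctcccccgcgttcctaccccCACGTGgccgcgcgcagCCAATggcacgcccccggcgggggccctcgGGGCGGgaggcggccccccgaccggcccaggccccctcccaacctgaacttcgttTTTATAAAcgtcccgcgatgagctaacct
HOXD8, chr2:176129455-176129704, plus strand: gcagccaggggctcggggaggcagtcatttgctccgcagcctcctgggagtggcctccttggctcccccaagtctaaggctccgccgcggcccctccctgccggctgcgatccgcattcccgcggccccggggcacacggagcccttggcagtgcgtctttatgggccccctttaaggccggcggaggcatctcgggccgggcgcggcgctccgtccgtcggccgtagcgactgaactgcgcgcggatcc
HOXA6, chr7:27147775-27148024, minus strand: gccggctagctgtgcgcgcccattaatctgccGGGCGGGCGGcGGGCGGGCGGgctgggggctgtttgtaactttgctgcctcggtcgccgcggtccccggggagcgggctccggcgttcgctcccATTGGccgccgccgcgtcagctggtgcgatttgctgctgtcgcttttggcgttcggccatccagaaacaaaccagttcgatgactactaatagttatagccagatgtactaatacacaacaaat
HOXD11, chr2:176107030-176107279, plus strand: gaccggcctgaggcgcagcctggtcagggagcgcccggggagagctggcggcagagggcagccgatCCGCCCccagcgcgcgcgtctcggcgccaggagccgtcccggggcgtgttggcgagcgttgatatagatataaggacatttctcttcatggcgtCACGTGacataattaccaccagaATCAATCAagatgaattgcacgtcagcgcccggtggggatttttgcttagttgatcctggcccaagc

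The HOXD13 window held 6 matches, a pair of overlapping TATA boxes close to the start among them, with a CCAAT box, an E-box and GC boxes further up. The HOXD8 window, from a gene that also rose, held 0 matches. The HOXA6 window held 5, GC boxes in overlapping pairs and a CCAAT box, and the HOXD11 window held 3, a GC box, an E-box and a HOX-PBX site. Over the HOX windows the CCAAT box was in 18 of 27, against 32.0% of 34943 windows of all genes, and the E-box in 8 of 27, against 6.32%. The GC box was in 13 of 27, against 42.5%, the TATA box in 5 against 10.8%, the HOX-PBX site in 3 against 6.49% and the C/EBP-ATF element in 1 against 3.15%, while the cAMP response element was in 0, against 1.63%. Windows of HOXA3 alone make up 7 of the 27, and HOXC4 and HOXC5 share one, so the entries are not independent. Some HOX windows also lie in annotated exons, with all 250 bases for HOXD4, HOXA11, HOXC4 and HOXC5, 249 for HOXD1 and 199 for HOXD10. Those of HOXD13, HOXD11, HOXD3, HOXA6, HOXA9 and HOXB1 had 0 such bases. Exon bases were not counted in the windows of all genes. The HOX windows had a median of 19 CpG dinucleotides, against 11 over all windows, at a median GC content of 58.8% against 58%.

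Between the outermost HOX genes of the clusters, 31 non-coding genes were listed and 11 tested, of which 3 were called higher and 6 lower, beside 45.1% and 35.7% of all genes. Of the 6, HOXA-AS2, HOXB-AS3 and AC012531.1 passed the filter through control libraries only. HOTAIRM1, a gene of the HOXA cluster known from myeloid differentiation, averaged 4.82 ± 0.598 FPKM in UDCA cells and 1.92 ± 0.317 FPKM in control cells (2.51-fold higher, adjusted p = 0.000106). HAGLR, an antisense gene of the HOXD cluster, averaged 10.0 ± 0.543 FPKM with UDCA and 7.08 ± 0.564 FPKM in control cells (1.41-fold higher, adjusted p = 0.000451). HOXB-AS3, on the opposite strand of HOXB5 and HOXB6, averaged 1.11 ± 0.39 FPKM with UDCA and 7.78 ± 0.921 FPKM in control cells, 6.99-fold lower (adjusted p = 9.02e-06). Its fall went with those of HOXB5 and HOXB6, with which it has exon bases in common (30.1% of its own are shared). HOTAIR, the HOXC antisense RNA studied for its binding to Polycomb complex 2, averaged 2.68 ± 0.403 and 4.08 ± 0.443 FPKM in UDCA and control cells (1.52-fold lower, adjusted p = 0.00383). HOXA-AS2 fell 3.07-fold, HOXC-AS1 2.32-fold, HOXD-AS2 1.51-fold and AC012531.1 3.35-fold. The hairpin gene MIR10B, in the HOXD cluster, had 45 reads in UDCA and 20 in control cells and was called higher (adjusted p = 0.0148). That call was lost on leaving out replicate 1 of UDCA or replicate 2 or 3 of control (adjusted p 0.0502 to 0.0513), and a polyA library gives no measure of the mature miRNA. The protein-coding genes PRAC1, PRAC2 and AC009336.2, which lie within the spans, were too low to be tested.

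Genes around the clusters differed in both directions, as genes did in general. Within 500 kb of a span, 40 other protein-coding genes were listed and 25 tested, of which 13 were called higher and 7 lower, close to the 45.1% and 35.7% of all genes. Around HOXB, 6 of 8 were called higher: NFE2L1, a transcription factor for proteasome genes, averaged 382 ± 7.11 FPKM with UDCA and 84.4 ± 2.43 FPKM in control cells, and COPZ2, a coat protein gene, 14.6 ± 0.592 and 2.53 ± 0.374 FPKM. CALCOCO2 rose 3.88-fold, UBE2Z 3.49-fold and SNF8 1.22-fold, while CBX1 fell 1.73-fold and ATP5MC1 1.64-fold. SNX11 was called higher by 1.11-fold (adjusted p = 0.0356), but under 8 of the alternatives its adjusted p was 0.0652 to 0.396. Around HOXC, 4 of 13 were called higher (CALCOCO1 by 2.61-fold, ITGA5 1.95-fold, COPZ1 1.23-fold, SMUG1 1.20-fold) and 5 lower (CBX5 by 3.98-fold, TARBP2 3.26-fold, MAP3K12 1.86-fold, HNRNPA1 1.60-fold, ATP5MC2 1.24-fold). Next to HOXA, HIBADH rose 1.70-fold, and next to HOXD, MTX2 rose 1.49-fold and LNPK 1.37-fold.

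Genes for the TALE proteins, which bind DNA together with HOX factors, included 6 called lower of 7 tested, beside 35.7% of all genes. Their median log2 change was -0.48, against 0.10 over all genes. MEIS1 and PKNOX2 passed the filter through control libraries only, which favours lower values, and of the other 5 tested genes 4 were called lower. MEIS1 averaged 0.721 ± 0.08 FPKM in UDCA cells and 2.50 ± 0.0959 FPKM in control cells (adjusted p = 7.54e-06), and MEIS2 1.45 ± 0.0576 and 3.85 ± 0.23 FPKM (adjusted p = 4.67e-06). PKNOX2 fell 3.39-fold and PBX3 1.5-fold. MEIS3 was not called, with 6.88 ± 0.274 FPKM with UDCA and 6.97 ± 0.18 FPKM in control cells.

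Genes of the chromatin complexes that act on HOX clusters were called higher about as often as the 45.1% of all genes, and single members moved far. Beside the 35.7% of all genes called lower, the share was above it in Polycomb complex 2 and below it in the Trithorax-type list. In Polycomb complex 2, 5 of 11 tested genes were called higher and 6 lower (median log2 change -0.20): the accessory subunit PHF19 averaged 1.85 ± 0.194 FPKM in UDCA cells and 32.1 ± 0.953 FPKM in control cells, a 17.4-fold fall (adjusted p = 7.76e-09). RBBP7 fell 2.01-fold, and the catalytic subunit EZH1 and the accessory subunit PHF1 rose 2.0-fold and 1.94-fold. The other catalytic subunit, EZH2, averaged 26.8 ± 0.426 and 24.9 ± 0.273 FPKM in UDCA and control cells, 1.08-fold higher. In Polycomb complex 1, 9 of 18 tested genes were called higher and 6 lower (median 0.16), with CBX2 lower by 2.77-fold and PCGF1 and PCGF5 higher by 2.45- and 2.22-fold. Of 14 Trithorax, COMPASS and demethylase genes, 6 were called higher and 3 lower (median 0.07). KDM6B, which removes methyl groups from histone H3 lysine 27, averaged 35.8 ± 0.376 FPKM with UDCA and 8.16 ± 0.375 FPKM in control cells (4.39-fold higher, adjusted p = 1.29e-08), DOT1L rose 1.86-fold, and ASH2L and MEN1 fell 1.85-fold and 1.62-fold.

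Of 7 CTCF and cohesin genes, which mark cluster boundaries, 6 were called lower, beside 35.7% of all genes (median -0.56): the cohesin subunit SMC1A averaged 9.57 ± 0.371 FPKM with UDCA and 29.9 ± 0.376 FPKM in control cells, RAD21 fell 2.21-fold, STAG1 1.69-fold and CTCF 1.54-fold, and the loader NIPBL was not called. Of 13 tested retinoic acid genes, 9 were called lower and 2 higher, beside 35.7% and 45.1% of all genes (median -0.89). RXRG, a retinoid receptor that passed the filter through control libraries only, averaged 0.0522 ± 0.0264 FPKM with UDCA and 3.94 ± 0.526 FPKM in control cells. RARB, a receptor and itself a retinoic acid target, averaged 5.10 ± 0.24 FPKM with UDCA and 18.2 ± 0.513 FPKM in control cells (adjusted p = 5.8e-08). CRABP2, which carries retinoic acid to its receptor, fell 5.64-fold and DHRS3, a retinal reductase, 3.41-fold, while the retinol uptake receptor STRA6 and the retinol dehydrogenase RDH10 rose 1.31-fold and 1.24-fold. Both genes EVX1 and EVX2, relatives beside the HOXA and HOXD clusters, were listed and were too low to be tested. Whether any of these changes bears on the HOX levels was not tested.

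**Figure D5:**
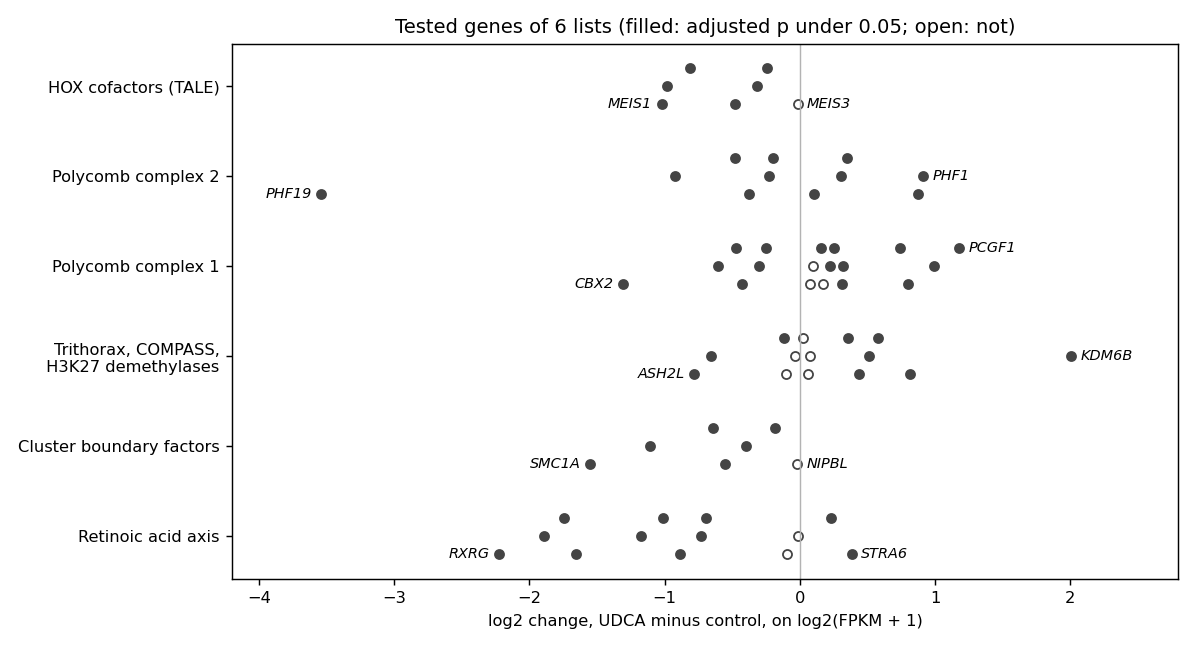
Log2 change of each tested gene of 6 lists (UDCA minus control, from log2(FPKM + 1) values, on the horizontal axis); each point is a gene, filled where the adjusted p was under 0.05 and open otherwise, and points are set apart vertically only for legibility. The TALE cofactors and the boundary factors hold 6 genes called lower and 1 not called each, while the Polycomb and Trithorax-type lists lie on both sides, from PHF19 at -3.54 to KDM6B at 2.01.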

How the data were processed

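Polyadenylated RNA was sequenced from 3 UDCA and 3 control libraries (Illumina TruSeq), as the labels' protocols state. HISAT2, Bowtie2 2.0.6 and GRCh38 are named, per the submitters' processing notes; how reads were counted, strand included, is not given in the sources used here. Deposited values are FPKM, a unit inferred from the values: each times the gene's merged GENCODE 29 exon length was a whole multiple of 1 step per library (100% of values within 0.01 reads), which also gave the reads per library. A count of 3 reads in 1 kb is 0.169 to 0.188 FPKM, for counting error only.

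Genes that reached 1 FPKM in 3 or more of the 6 libraries were tested on log2(FPKM + 1) with limma 3.58.1 (limma-trend, 2-sided) in R 4.3.3, with group as the only term and Benjamini-Hochberg adjustment over all 14380 genes at 0.05. The procedure was tested on simulated data in which few genes changed, none of them at low levels. That run differs from these data, where most genes differed, and does not check the HOX calls. Tables and plots used Python 3.11.15, pandas 2.3.3 and matplotlib 3.10.9. Shared exon bases were taken from GENCODE 29, on either strand.

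Every HOX gene is counted and tested ones are named, except 1 not reported here. Non-coding genes within the spans and coding genes within 500 kb are named where called. Of each list, up to 4 called members are named by largest change. EZH2, KRT8, KRT18, SNAP25, TUBB3, MEIS3, NIPBL, STRA6, RDH10 and untested genes are named besides, chosen after their values were seen. The members, lists and divisions were chosen with earlier results of these data known. Alternatives were quantile and median ratio scaling, totals without mitochondrial genes, no filter, a pseudocount of 0.1, the replicate number as a block, voom on recovered reads, leaving out each library, and only HOX genes with at most 10% of exon bases shared.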

Additional observations from a re-analysis of the deposited data

How the results depend on the processing

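HOX genes called higher numbered 4 to 6 and HOX genes called lower 18 to 22 over the settings that kept all tested HOX genes, and no tested HOX gene changed sign in any of them. With only HOX genes that share at most 10% of their exon bases, 4 were called higher and 12 lower of 17 tested, because fewer genes were counted. Median ratio scaling put the median log2 change of all genes at 0.015 in place of 0.095 and gave 4 and 21; totals without mitochondrial genes gave 5 and 21, quantile normalization and a pseudocount of 0.1 both 5 and 20. Voom on the recovered reads called 11818 genes in all. Leaving out 1 library gave 4 to 5 higher and 18 to 20 lower, and 11218 to 11381 of all genes called, against 11624. Same-numbered libraries did not deviate together (correlations 0.0143, -0.00119 and 0.00725 for numbers 1 to 3), which does not exclude that they were paired. With the replicate number as a block 11503 genes were called, and 4 HOX genes were higher and 20 lower, HOXA10 being lost (adjusted p = 0.0540). The causes of these losses were not tested. Depth limits the 13 untested HOX genes, most of which had under 50 reads per group.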
